A study of Arabidopsis thaliana with 27 samples.

Results

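The genes described here encode 10 enzymes of the phenylpropanoid pathway that lead from phenylalanine to lignin monomers in *Arabidopsis thaliana*, and they were measured by RNA-seq in leaves that were wounded and treated with caterpillar oral secretions (OS). They were picked by name and AGI locus code, with no expression value in the rule, though earlier results of these data were known: PAL1 (AT2G37040), PAL2 (AT3G53260), PAL3 (AT5G04230), PAL4 (AT3G10340), C4H (AT2G30490), 4CL1 (AT1G51680), 4CL2 (AT3G21240), CCR1 (AT1G15950), CCR2 (AT1G80820) and CCoAOMT1 (AT4G34050). All 10 were among the 18899 genes of the deposited table. The 27 samples were leaf discs of wild-type Col-0 plants aged 5 weeks, in 7 groups. Unwounded controls (n = 4) were collected once, with the 3 h samples. The other plants had 3 leaves pierced with 4 holes of 1 mm, and each hole received 2 µl of water (W), of *Pieris brassicae* OS (Pb OS) or of *Spodoptera littoralis* OS (Sl OS). Discs were taken 3 h later (W n = 3, Pb OS n = 4, Sl OS n = 4) or 24 h later (n = 4 each). The authors excluded the wounding and water sample of 1 batch as an outlier, which left 3 W samples at 3 h. Plants were treated in pairs, so that a sample may pool leaves of more than 1 plant. Since OS was applied only to wounded leaves, OS without a wound was not measured, and a 24 h difference from control also carries the time of collection.

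Phenylalanine ammonia-lyase (PAL) removes ammonia from phenylalanine to give cinnamate, and cinnamate 4-hydroxylase (C4H) turns this into p-coumarate. 4-coumarate:CoA ligase (4CL) activates the acid with coenzyme A. The activated acids are shared by lignin, flavonoids, coumarins and soluble esters such as sinapoylmalate. Cinnamoyl-CoA reductase (CCR) commits them to lignin monomers, and caffeoyl-CoA O-methyltransferase (CCoAOMT) adds the methyl group of the guaiacyl and syringyl units. Lignin is best known from xylem and fibres, but plants also deposit it at wounds and sites of attack. PAL, 4CL and CCR are encoded by small families whose members differ in where and when they are used.

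Values are CPM, the reads of a gene scaled to a fixed library size, taken back from the tabulated log2 CPM. The authors had corrected these for batch, so the values are not plain scaled reads. The libraries held 22.5 to 31.3 M reads on genes, and the depth of each group overlapped that of every other. Replicates 1 and 2 came from plants that overlapped in the growth room (plant batch 1), as did replicates 3 and 4 (plant batch 2). The correction gave these 2 batches equal means for each gene over all samples. A batch that is the higher at 1 time must therefore be the lower elsewhere, and levels are best compared within a batch. The W samples at 3 h are labelled 1, 2 and 3. Here label 1 belonged to batch 1 and labels 2 and 3 to batch 2. Leaf mesophyll markers were the highest of the marker lists, with a summed level of 30977 to 56877 CPM in controls over 5 of 5 genes. They were lower with both OS at 3 h, at 8813 to 15743 CPM (Pb OS) and 3978 to 16565 CPM (Sl OS). Xylem and fibre wall markers (10 of 10 in the table) summed to 44.1 to 73.8 CPM in controls, 22.7 to 95.1 CPM with Pb OS and 20.4 to 53.3 CPM with Sl OS at 3 h. At 24 h they summed to 76.3 to 106.5 CPM with Pb OS and 113 to 132 CPM with Sl OS, both above the control range. By the test used below, 0 of 10 passed there with Pb OS (1.84% of all genes) and 1 of 10 with Sl OS (2.77%). The most abundant, XCP2, had means of 19.4 (control), 29.8 (Pb OS) and 41.1 CPM (Sl OS), but FLA12 was lower, at 2.35, 1.86 and 1.93 CPM. Of the root markers only PYK10 was in the table, at 0.0247 to 0.165 CPM in controls and up to 6.38 CPM with Pb OS at 3 h. In such bulk samples, fewer cells of a type, less RNA per cell and lower expression of the marker genes themselves cannot be told apart. The part of these shifts in the results below was not tested.

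**Figure D1:**
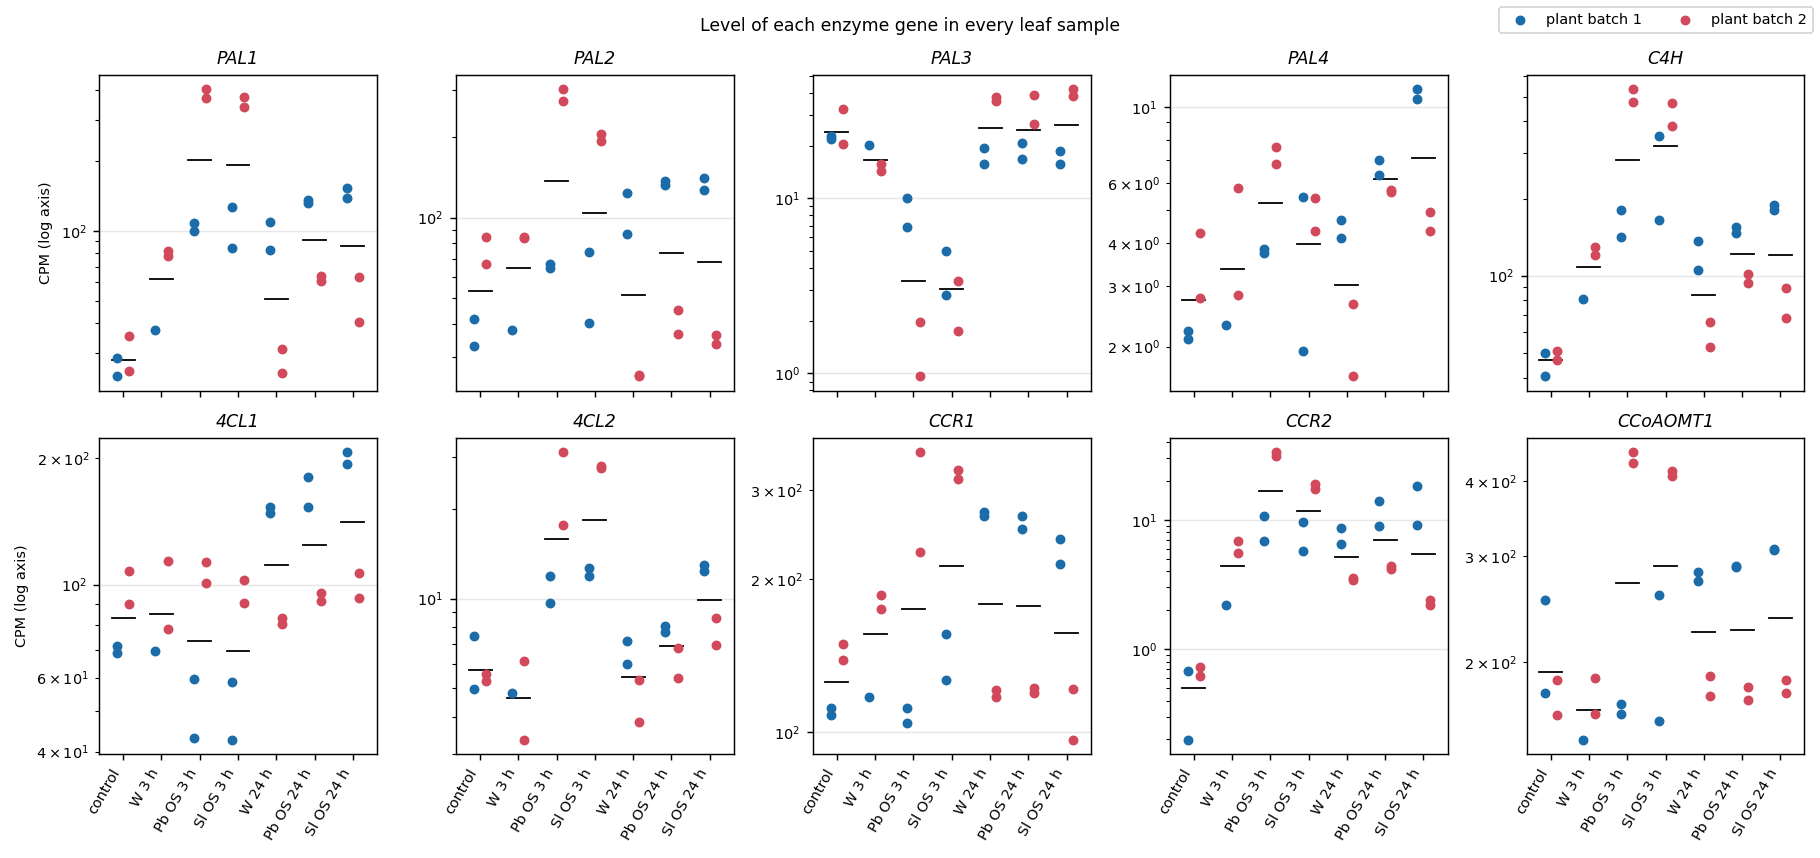
Level of each of the 10 genes in every sample, in CPM on a log axis, by group. Points are single samples coloured by plant batch and the black bar is the mean of the log2 values. Levels are batch-corrected, with equal batch means for each gene over all samples. At 3 h with OS the batch 2 samples of PAL1 lie at 339 to 406 CPM and those of batch 1 at 84.2 to 127 CPM, and at 24 h the batches change places.

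The clearest response was at 3 h with OS. PAL1, C4H, 4CL2 and CCR2 rose with each OS, PAL3 fell with each OS, and the other 5 genes did not pass the test. A gene passed against control at an adjusted p below 0.05 and a log2 change above 1 in size. Thus 4 of 10 members rose with Pb OS at 3 h, where 13.3% of all genes did so, and 1 of 10 fell (14.6% of all genes). With Sl OS the same members moved, 4 of 10 upwards (14.6% of all genes) and 1 of 10 downwards (16.3%). With W alone at 3 h, CCR2 rose (1 of 10, 3.88% of all genes) and no member fell (0.413%). At 24 h the same gene, CCR2, was again the 1 member of 10 that rose with W (1.4% of all genes), with Pb OS (1.62%) and Sl OS (2.28%). No member fell at 24 h, beside 0.153% (W), 0.217% (Pb OS) and 0.497% (Sl OS) of all genes. The median log2 change over the 10 members was 1.16 (Pb OS) and 0.87 (Sl OS) at 3 h, beside -0.00078 and 0.01 over all genes. It was 0.29 with W at 3 h, and 0.32 (W), 0.54 (Pb OS) and 0.78 (Sl OS) at 24 h.

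**Figure D2:**
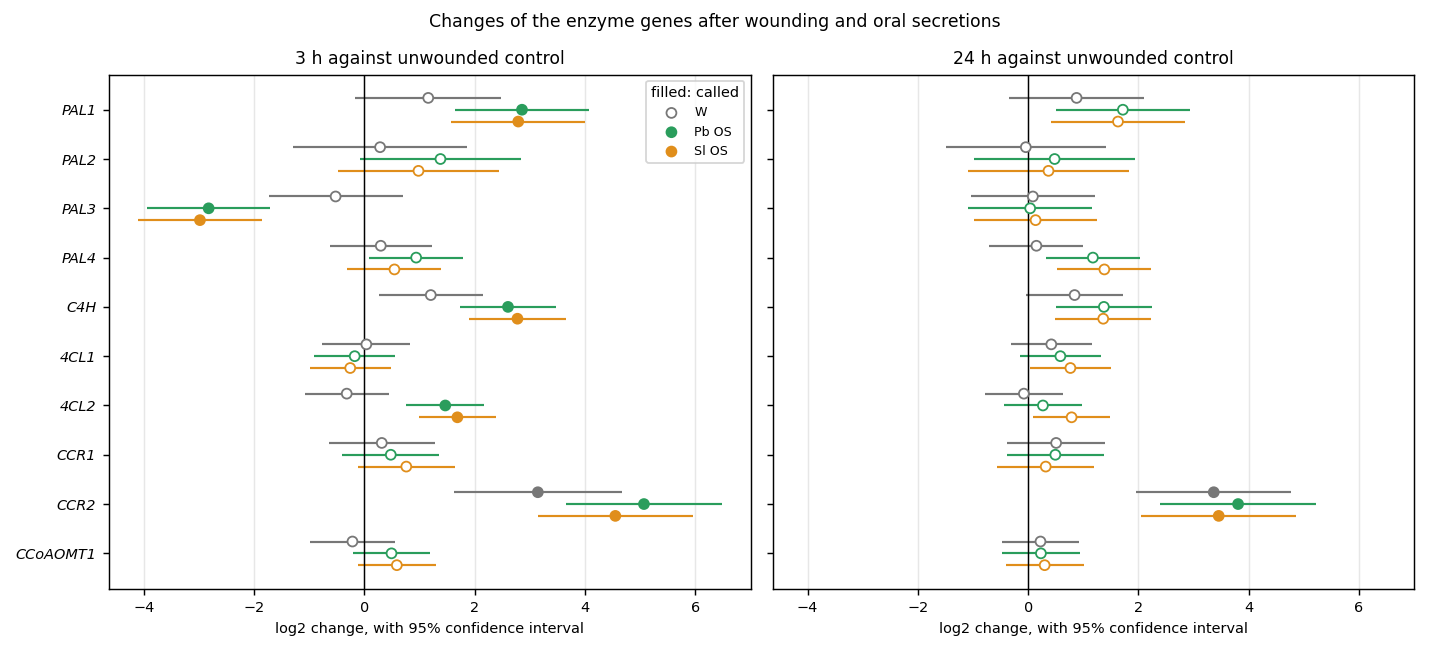
Log2 change of each gene against unwounded control at 3 h and 24 h, from the limma fit, with 95% confidence intervals. Filled points passed the test. PAL1, C4H, 4CL2 and CCR2 lie to the right and PAL3 to the left with both OS at 3 h, and CCR2 alone is filled at 24 h.

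PAL1, a main PAL isoform of Arabidopsis, held 28.4, 23.7, 35.3 and 24.9 CPM in control replicates 1 to 4. With W at 3 h its samples 1, 2 and 3 held 37.3, 81.8 and 78.3 CPM. Pb OS at 3 h gave 108, 99.8, 406 and 371 CPM. Every Pb OS sample was above every W and control sample, and replicates 3 and 4 stood far above 1 and 2. Sl OS at 3 h gave 84.2, 127, 339 and 374 CPM, again above every W sample. The log2 change against control was 2.86 ± 0.59 (SE; adjusted p = 0.000364) with Pb OS and 2.79 ± 0.59 (adjusted p = 0.000397) with Sl OS, and 1.16 ± 0.64 (adjusted p = 0.381) with W. Against W at 3 h the difference was 1.7 (Pb OS, adjusted p = 0.0521) and 1.63 (Sl OS, adjusted p = 0.0524) on the log2 scale, just outside the threshold. At 24 h PAL1 had 82.4, 109, 24.4 and 31.0 CPM with W, 136, 131, 60.6 and 64.2 CPM with Pb OS, and 152, 139, 40.7 and 63.0 CPM with Sl OS. With either OS every 24 h sample was above the highest control, but the change did not pass (adjusted p = 0.154 and 0.133). With a batch effect for each time it passed, with log2 changes of 1.72 (Pb OS, adjusted p = 7.95e-05) and 1.63 (Sl OS, adjusted p = 0.000138).

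PAL2, the isoform usually grouped with PAL1, was at 41.8, 33.1, 84.8 and 67.2 CPM in controls. It reached 64.9, 66.8, 303 and 273 CPM with Pb OS at 3 h and 40.2, 74.2, 206 and 194 CPM with Sl OS. These groups overlapped the control, and the log2 changes of 1.38 ± 0.70 and 0.98 ± 0.70 did not pass (adjusted p = 0.105 and 0.244). At 24 h the batches were inverted, with 132 and 137 CPM in replicates 1 and 2 against 44.9 and 36.5 CPM in 3 and 4 with Pb OS. In a fit with a batch effect for each time, PAL2 passed with Pb OS at 3 h (log2 change 1.38, adjusted p = 4.28e-06).

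PAL3, the most divergent member of the family, was the 1 gene of the 10 that fell. Controls held 21.9, 22.6, 32.5 and 20.4 CPM. W at 3 h gave 20.2, 15.8 and 14.3 CPM, all below the lowest control, and this change did not pass (log2 change -0.52, adjusted p = 0.737). With Pb OS at 3 h the samples held 6.85, 10.0, 0.963 and 1.96 CPM, and with Sl OS 5.03, 2.82, 1.75 and 3.38 CPM. No OS sample overlapped control or W. The lowest sample still counted 22 reads, so that the level was low but measured. PAL3 fell by 2.83 ± 0.54 with Pb OS (adjusted p = 0.000175) and by 2.98 ± 0.54 with Sl OS (adjusted p = 8.35e-05) on the log2 scale against control. Against W it fell by 2.30 (adjusted p = 0.00666) and by 2.46 (adjusted p = 0.00286). At 24 h it was back at 15.7 to 42.2 CPM over the W, Pb OS and Sl OS samples, and the log2 changes against control were 0.04 to 0.13.

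PAL4 was the scarcest PAL, with 2.1 to 4.28 CPM and 58 to 87 reads per control library. At 3 h it had 3.74 to 7.61 CPM with Pb OS and 1.94 to 5.46 CPM with Sl OS. At 24 h Pb OS gave 7.01, 6.34, 5.73 and 5.65 CPM and Sl OS 11.3, 10.5, 4.35 and 4.94 CPM, the first 2 of them its highest samples, with no sample as low as the highest control. The log2 changes of 1.17 ± 0.41 and 1.38 ± 0.41 missed the threshold (adjusted p = 0.169 and 0.0580). With a batch effect for each time they passed (adjusted p = 0.0077 and 0.00149).

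C4H, encoded by a single gene, closely tracked PAL1. Controls held 40.4, 49.8, 51.0 and 46.6 CPM and W at 3 h gave 81.2, 129 and 120 CPM. Pb OS at 3 h gave 181, 141, 536 and 477 CPM and Sl OS gave 165, 350, 383 and 474 CPM. All OS samples lay above all W samples, and all W samples lay above all controls. C4H rose by a log2 change of 2.60 ± 0.42 (Pb OS, adjusted p = 2.99e-05) and 2.77 ± 0.42 (Sl OS, adjusted p = 1.12e-05) against control. It was also higher than with W, by 1.40 (adjusted p = 0.0275) and 1.57 (adjusted p = 0.0113). The difference of Pb OS from W was lost without W replicate 1 (adjusted p = 0.140), W replicate 3 (0.0564), or Pb OS replicate 3 (0.121) or 4 (0.108). That of Sl OS was lost without W replicate 1 (adjusted p = 0.0746). At 24 h C4H had 93.8 to 154 CPM with Pb OS and 68.6 to 188 CPM with Sl OS, every sample above the controls, with changes that did not pass (adjusted p = 0.102 and 0.0706). With a batch effect for each time they passed (adjusted p = 0.00047 and 0.000459), as did W at 3 h (log2 change 1.07, adjusted p = 0.00922).

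The 4CL genes behaved unlike each other. 4CL2 rose with each OS at 3 h and 4CL1 did not. 4CL2 held 4.97, 7.45, 5.58 and 5.27 CPM in controls and 4.81, 6.17 and 3.34 CPM with W at 3 h, so that W samples fell among and below the controls. Pb OS gave 11.9, 9.66, 31.1 and 17.7 CPM and Sl OS 11.9, 12.7, 27.6 and 27.9 CPM, all above the highest control. The log2 change was 1.47 ± 0.34 (adjusted p = 0.00109) and 1.68 ± 0.34 (adjusted p = 0.000256) against control, and 1.79 (adjusted p = 0.0015) and 2.01 (adjusted p = 0.000348) against W. 4CL1, the more abundant of the pair, held 71.6, 68.8, 108 and 90.0 CPM in controls and 43.0, 59.5, 113 and 101 CPM with Pb OS at 3 h. Its changes at 3 h were between -0.26 and 0.03 on the log2 scale, none past the threshold. Its 24 h samples ran from 80.4 to 207 CPM, with batch 1 above batch 2 in each treatment.

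CCR1 and CCR2 also differed. CCR1 is the isoform linked to lignin during development, and CCR2 is known as a gene induced by pathogens. CCR1 was abundant in controls, at 108, 112, 149 and 139 CPM, and its log2 changes against control were 0.31 to 0.76 over the 6 comparisons, none past the threshold. CCR2 was near the limit of detection in controls, with 5, 18, 12 and 16 reads. Its batch-corrected levels there were 0.199, 0.675, 0.624 and 0.731 CPM, which do not rank the controls as the reads do. W at 3 h gave 2.20, 6.93 and 5.59 CPM, above every control. Pb OS at 3 h gave 10.7, 6.88, 31.4 and 33.5 CPM and Sl OS 5.76, 9.66, 19.1 and 17.3 CPM. CCR2 rose by a log2 change of 3.14 ± 0.74 with W (adjusted p = 0.00947), 5.07 ± 0.68 with Pb OS (adjusted p = 3.17e-06) and 4.55 ± 0.68 with Sl OS (adjusted p = 9.01e-06). The rise with W was lost without W replicate 2 (adjusted p = 0.0689) or 3 (adjusted p = 0.0531). OS was not separated from W at 3 h (1.92, adjusted p = 0.0567, and 1.41, adjusted p = 0.147).

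At 24 h CCR2 stayed high, with 87 to 260 reads per library with W, 99 to 435 with Pb OS and 56 to 572 with Sl OS. The log2 changes were 3.37 (W, adjusted p = 0.00627), 3.81 (Pb OS, adjusted p = 0.00154) and 3.46 (Sl OS, adjusted p = 0.00319), and no treated sample overlapped the control. The calls at 24 h and with W at 3 h depended on the model. With limma-voom, which weights the recovered reads by their precision, the log2 changes at 24 h were 3.47, 3.97 and 3.62 with adjusted p = 0.324, 0.222 and 0.205, and that with W at 3 h was 3.08 (adjusted p = 0.307). A fit of the compared groups alone gave adjusted p = 0.0672 for Sl OS at 24 h.

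CCoAOMT1 had the highest level of the 10 genes, at 178, 253, 187 and 164 CPM in controls. Pb OS at 3 h left replicates 1 and 2 at 170 and 164 CPM and brought 3 and 4 to 428 and 447 CPM. Sl OS gave 159, 258, 415 and 409 CPM. Over both batches the log2 change was 0.49 ± 0.34 and 0.59 ± 0.34, neither past the threshold (adjusted p = 0.238 and 0.150).

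Groups that did not overlap were counted beside the tests. For Pb OS and for Sl OS at 3 h against control, 5 of 10 members did not overlap (39.9% and 49.4% of all genes), and for W at 3 h 4 of 10 (19.8%), namely PAL1, PAL3, C4H and CCR2. Against W at 3 h, PAL1, PAL3, C4H and 4CL2 did not overlap with either OS (4 of 10, beside 31% of all genes for Pb OS and 43.3% for Sl OS). At 24 h against control, 4 of 10 did not overlap with Pb OS (10.3% of all genes) and 4 of 10 with Sl OS (10.3%), in both cases PAL1, PAL4, C4H and CCR2. W at 24 h separated from control in C4H and CCR2 (2 of 10, 8.56% of all genes).

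The effect of OS beyond wounding was tested directly. At an adjusted p below 0.05, C4H and 4CL2 were higher with Pb OS than with W at 3 h (2 of 10, 11.6% of all genes) and PAL3 was lower (1 of 10, 15%). Sl OS gave the same members, 2 of 10 higher (14.5% of all genes) and 1 of 10 lower (18.8%). With a batch effect for each time, 8 of 10 members passed with each OS, 7 upwards, where 7156 (Pb OS) and 8315 (Sl OS) of the 18899 genes passed. Higher with both OS in that fit were PAL1 (adjusted p = 4.9e-05 and 3.4e-05), PAL2, C4H, 4CL2, CCR2 and CCoAOMT1. Of these, PAL2, CCR2 and CCoAOMT1 overlapped W with both OS. CCoAOMT1 was 1.12 (Pb OS) and 1.37 (Sl OS) times W in batch 1, where W is 1 sample. In batch 2 it was 2.49 and 2.34 times W. PAL4 passed with Pb OS alone and CCR1 with Sl OS alone. At 24 h, no member passed against W with Pb OS (0.0529% of all genes passed in either direction) or with Sl OS (0.455%). Unadjusted p values were below 0.05 there for PAL4 with both OS and for 4CL2 with Sl OS, beside 634 (Pb OS) and 1219 (Sl OS) of the 18899 genes. PAL4 with Sl OS at 24 h was 2.35 times W (adjusted p = 0.355), and it passed with a batch effect for each time (adjusted p = 0.0297).

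Pb OS and Sl OS were compared at each time. None of the 10 genes differed at 3 h or at 24 h, and limma called 0% of all genes at either time, with 768 and 706 genes below an unadjusted p of 0.05. At 3 h the differences ran from -0.28 (CCR1) to 0.52 (CCR2) on the log2 scale. Their 95% confidence intervals were wide. That of PAL1 ran from -1.15 to 1.29 and that of 4CL2, among the narrowest, from -0.92 to 0.48.

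The change against the control of the same batch was larger in size in batch 2 for 9 of 10 members with Pb OS at 3 h (72.2% of all genes) and for 8 of 10 with Sl OS (53.5%), 4CL1 and, with Sl OS, PAL4 being the exceptions. At 24 h it was larger in batch 2 for PAL3 alone with Pb OS (1 of 10, 45.7% of all genes) and likewise with Sl OS (1 of 10, 40.3%). PAL1 with Pb OS was 4.00-fold above the control of its own batch in batch 1 and 13.1-fold in batch 2 at 3 h, but 5.15-fold and 2.1-fold at 24 h. PAL2 with Pb OS was 1.77-fold and 3.81-fold at 3 h, and 3.62-fold and 0.537-fold at 24 h. CCoAOMT1 with Pb OS was 0.788-fold in batch 1 and 2.5-fold in batch 2 at 3 h. CCR2 with Sl OS was 20.3-fold and 26.9-fold at 3 h, and 35.2-fold and 3.42-fold at 24 h. Its 2 controls in batch 1 held 0.199 and 0.675 CPM, near the limit of detection, which limits its folds. All these ratios stay within a batch, so that the correction the authors made between batches does not enter them. Those at 24 h use controls collected with the 3 h samples.

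**Figure D3:**
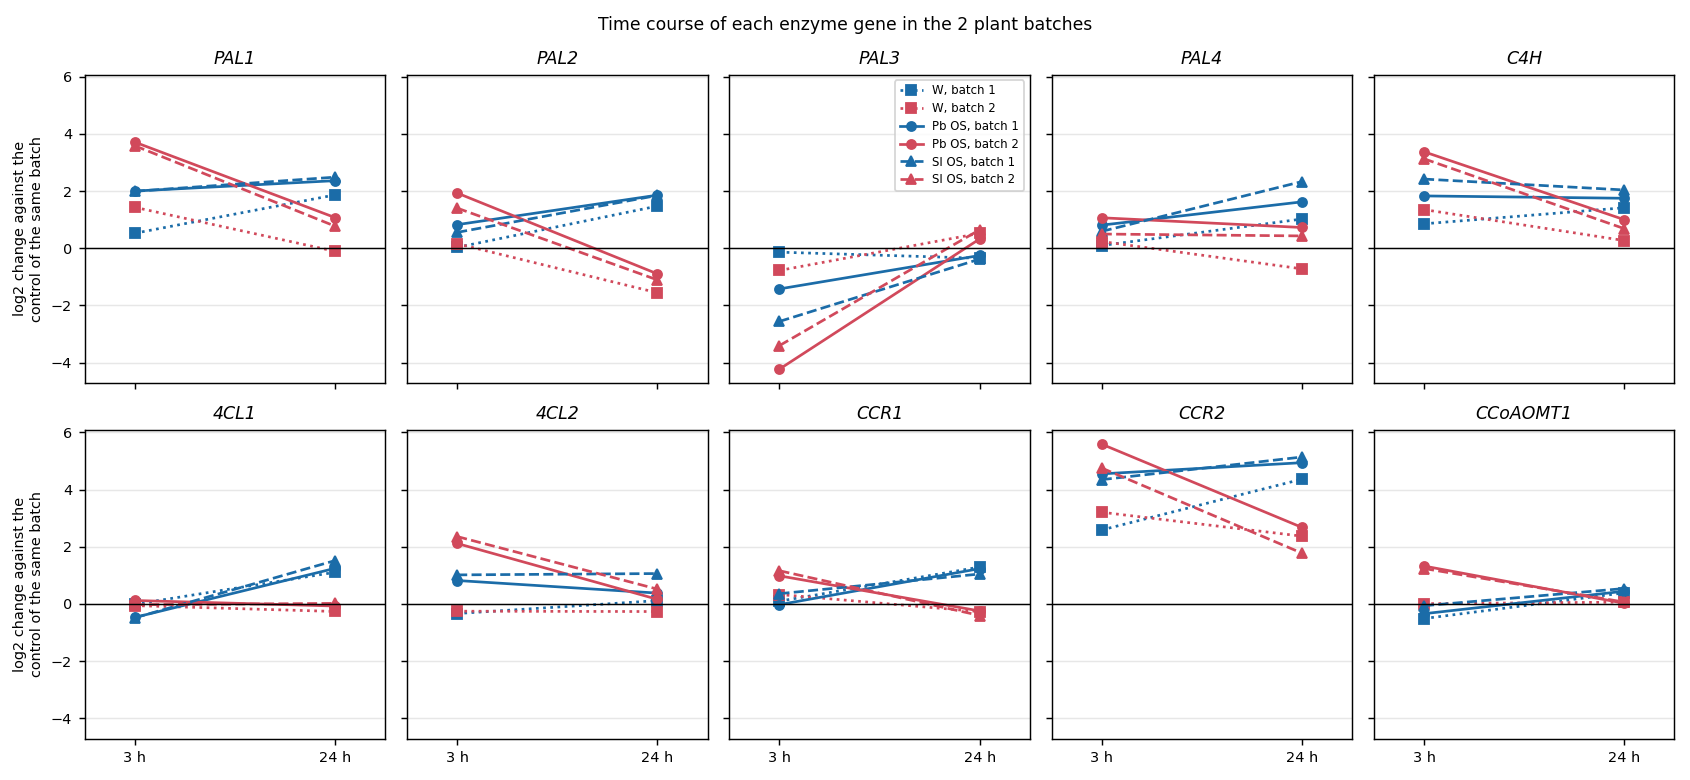
Log2 change of each gene against the control of the same plant batch, at 3 h and 24 h, for W, Pb OS and Sl OS. Each point is the mean of 2 samples per batch, except W at 3 h in batch 1, which is 1 sample. With Pb OS, 7 of 10 genes go in opposite directions in the 2 batches from 3 h to 24 h, beside 33.0% of all genes.

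The difference between the batches was tested with group means fitted per batch, an analysis added after the data had been seen. For Pb OS at 3 h against control, 7 of 10 members differed between the batches, beside 12.6% of all genes. PAL1, PAL2, C4H, 4CL2, CCR1 and CCoAOMT1 had the larger changes in batch 2, by 1.71, 1.11, 1.54, 1.30, 1.01 and 1.67 on the log2 scale (adjusted p = 0.00276 to 0.0482), and PAL3 the deeper fall, with a difference of -2.81 (adjusted p = 0.00506). For Sl OS at 3 h, 2 of 10 differed (0.503% of all genes), PAL1 by 1.59 (adjusted p = 0.0316) and CCoAOMT1 by 1.30 (adjusted p = 0.0324). For W at 3 h none did (0% of all genes, with 1130 genes at an unadjusted p below 0.05), with 1 sample in batch 1.

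At 24 h the sign was opposite. With W, 7 of 10 members were lower in batch 2 relative to its control than in batch 1 (17.1% of all genes differed in either direction), PAL2 by -3.03 (adjusted p = 2.17e-06) and CCR1 by -1.56 (adjusted p = 0.000126). The others were PAL1, PAL4, C4H, 4CL1 and CCR2. With Pb OS 5 of 10 were lower in batch 2 (PAL1, PAL2, 4CL1, CCR1 and CCR2, 16% of all genes), and with Sl OS 7 of 10 (the members seen with W, 15.3%). These 24 h comparisons share the same 4 controls, collected with the 3 h samples, so that their counts are not independent. A difference between the batches in how untreated leaves change with time cannot be told apart here from one in the response. The change from 3 h to 24 h differed between the batches for 9 of 10 members with Pb OS (27.1% of all genes) and 10 of 10 with Sl OS (18.5%). With W it did so for 6 of 10 (10.8%), where batch 1 at 3 h is 1 sample that is assumed to vary like the other groups. For PAL2 the 24 h to 3 h ratio with Pb OS was 2.05 in batch 1 and 0.141 in batch 2. With 2 plant batches, tests with a batch effect for each time speak of the mean of these batches and not of further ones.

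Taking the batches together, the time course was tested within each treatment. With Pb OS PAL3 was higher at 24 h than at 3 h by 2.86 on the log2 scale (adjusted p = 0.000204; 1 of 10, 23.7% of all genes). C4H and 4CL2 were lower at 24 h, by -1.23 (adjusted p = 0.0206) and -1.20 (adjusted p = 0.00631; 2 of 10, 23% of all genes). With Sl OS PAL3 and 4CL1 were higher at 24 h, by 3.12 (adjusted p = 6.58e-05) and 1.02 (adjusted p = 0.0202; 2 of 10, 25.5% of all genes), and C4H and 4CL2 lower, by -1.41 (adjusted p = 0.00821) and -0.90 (adjusted p = 0.0325; 2 of 10, 24.4%). With W no member passed (5.04% of all genes in either direction). Leaving out Pb OS replicate 3 or 4 at 3 h or at 24 h ended the call of C4H (adjusted p = 0.0546 to 0.0990). The same held for 4CL2 with Sl OS without replicate 3 or 4 of either time (0.0804 to 0.118) and for 4CL1 without replicate 1 or 2 of either time (0.0573 to 0.0850). Fitting the compared groups alone also ended the calls of C4H with Pb OS (adjusted p = 0.0539), and of 4CL1 (0.0587) and 4CL2 (0.0774) with Sl OS.

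Whether the gap between OS and W itself changed with time was tested as an interaction. PAL3 with Sl OS passed (1 of 10, 15.1% of all genes in either direction). Its OS to W difference was higher at 24 h than at 3 h by 2.51 ± 0.80 on the log2 scale (adjusted p = 0.0369). This call was lost without any 1 of 9 samples (adjusted p = 0.0603 to 0.0982), and it kept its size there at 2.22 to 2.61. It was also lost with a block of 4 replicate numbers in which the W samples at 3 h count as 1, 3 and 4 (2.47, adjusted p = 0.0524) and with scaling to library totals (2.37, adjusted p = 0.0658). With Pb OS no member passed (5.91% of all genes did), PAL3 having 2.25 (adjusted p = 0.0880) and 4CL2 -1.44 (adjusted p = 0.0834).

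Levels were compared between genes only per kilobase of annotated exon. They are batch-corrected values, and the correction shifted each gene by its own amount. Over all genes the shift between batches had a median size of 0.19 on the log2 scale. In controls the order was CCoAOMT1 (126 CPM per kilobase), CCR1 (64.9), 4CL1 (33.0), C4H (22.5), PAL2 (19.6), PAL1 (9.58), PAL3 (9.33), 4CL2 (2.78), PAL4 (1.04) and CCR2 (0.265). C4H and PAL2 were within 1 SD of each other, as were PAL1 and PAL3. With Pb OS at 3 h C4H (160 ± 96.8, SD, n = 4) came next to CCoAOMT1 (195 ± 101), and PAL3 (1.90) came last, beside PAL4 (2.02). The summed level of the PAL genes went from 39.6 ± 11.6 CPM per kilobase in controls to 149 ± 100 (Pb OS) and 126 ± 78.7 (Sl OS) at 3 h, where replicates 3 and 4 were far above 1 and 2.

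In the batch-corrected values, the share of PAL1 in this sum varied less between replicates than the sum itself. PAL1 was 24.9 ± 4.16% of the sum in controls, 40.8 ± 3.38% with W, 56.3 ± 1.47% (Pb OS) and 62.2 ± 2.15% (Sl OS) at 3 h. PAL3 was 24.2 ± 4.48% in controls and 13.5 ± 7.75% with W at 3 h, and 2.70 ± 2.95% and 1.69 ± 1.78% with Pb OS and Sl OS. PAL2 went from 48.3 ± 8.23% to 39.3 ± 3.57% and 34.5 ± 2.94%. At 24 h PAL1 held 43.6 ± 1.32% with Pb OS and 41.9 ± 7.02% with Sl OS. Within 4CL1 and 4CL2, the share of 4CL2 was 8.02 ± 2.55% in controls, 21.1 ± 4.70% (Pb OS) and 24.6 ± 2.65% (Sl OS) at 3 h, and 6.44 ± 1.36% and 7.97 ± 1.49% at 24 h. CCR2 was 0.402 ± 0.170% of the CCR sum in controls and 8.43 ± 2.67% with Pb OS, 4.88 ± 0.596% with Sl OS and 2.66 ± 0.843% with W at 3 h. These shares are descriptions and were not tested. They mix genes that the batch correction shifted by different amounts, which enters the shares and their SDs.

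**Figure D4:**
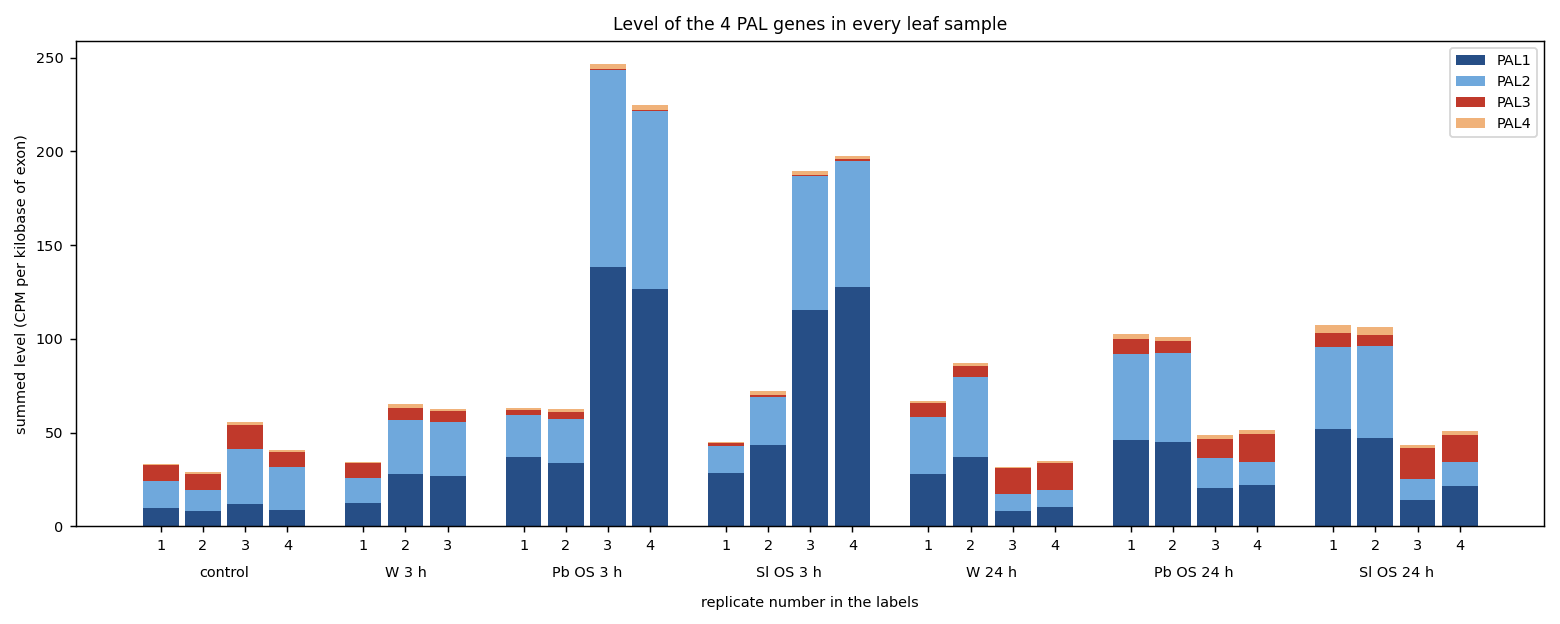
Batch-corrected level of the 4 PAL genes per kilobase of exon, stacked for each sample and ordered by group and replicate number. The sums reach 247 and 225 in replicates 3 and 4 of Pb OS at 3 h and 63.4 and 62.4 in replicates 1 and 2, and the PAL3 layer is thinnest with OS at 3 h.

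In the TAIR10.1 annotation the genes lie on 5 chromosomes, with PAL1 at chr2:15557367-15560755 (minus strand), PAL2 at chr3:19744018-19747114 (minus strand), PAL3 at chr5:1160569-1163957 (plus strand), PAL4 at chr3:3203988-3208135 (plus strand), C4H at chr2:12993625-12996012 (minus strand). The others are 4CL1 at chr1:19158746-19161737 (minus strand), 4CL2 at chr3:7454269-7457404 (minus strand), CCR1 at chr1:5478603-5482180 (plus strand), CCR2 at chr1:30370474-30372799 (plus strand) and CCoAOMT1 at chr4:16310409-16312308 (plus strand). Reads of near-identical copies and of overlapping genes limit these values. How reads that match more than 1 PAL, 4CL or CCR gene were counted is not given in the sources used here, nor whether counting used the strand. CCR1 overlaps 2 genes on the other strand, of which AT1G15960 was in the table at 11.8 CPM in controls and 28.4 CPM with W at 24 h. CCR2 shares 132 bases with AT1G80830, whose group means were 13.1 to 14.6 CPM in controls and at 3 h, and 49.3 CPM with W at 24 h. The part of these neighbours in the CCR values at 24 h was not tested. 4CL1 shares 24 bases with AT1G51670, which was not analysed here.

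Over the 27 samples, which share batches and groups, the member most like PAL1 was C4H (Pearson r of log2 CPM = 0.97). In the search over the 17233 genes with a mean of at least 1 CPM, C4H was also the closest of all, followed by AT5G54300 (r = 0.94) and ADT4 (r = 0.94), an arogenate dehydratase that makes phenylalanine. The genes closest to PAL3 were AT5G02710 (r = 0.99), AT5G11330 (r = 0.99) and the calcium pump gene ACA4 (r = 0.98). Those closest to CCR2 were CRRSP55 (r = 0.93), IP5P11 (r = 0.92) and MES9 (r = 0.92). Among members, PAL3 was inversely related to C4H (r = -0.87), 4CL2 (r = -0.83) and PAL1 (r = -0.80), and 4CL1 had little relation to 4CL2 (r = 0.07). These correlations are descriptions, with no p.

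The 250 bases upstream of the annotated start of the 5 genes that moved are shown, because 4 of them rose together and PAL3 fell. They come from RefSeq (TAIR10.1) and read 5′ to 3′ on the strand of the gene. Capitals mark exact matches, on either strand, to AC element I (ACCTACC), AC element II (ACCAACC) and AC element III (ACCTAAC), which MYB factors bind in lignin genes, the W-box of WRKY factors (TTGACC or the variant TTGACT) and the G-box (CACGTG). No matches overlapped each other. They are PAL1 (chr2:15560756-15561005, minus strand), C4H (chr2:12996013-12996262, minus), 4CL2 (chr3:7457405-7457654, minus), CCR2 (chr1:30370224-30370473, plus) and PAL3 (chr5:1160319-1160568, plus).
PAL1: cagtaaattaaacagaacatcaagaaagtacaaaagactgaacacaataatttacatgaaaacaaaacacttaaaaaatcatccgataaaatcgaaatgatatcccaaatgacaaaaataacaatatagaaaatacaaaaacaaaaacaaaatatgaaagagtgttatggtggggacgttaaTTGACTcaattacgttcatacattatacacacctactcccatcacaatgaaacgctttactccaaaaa
C4H: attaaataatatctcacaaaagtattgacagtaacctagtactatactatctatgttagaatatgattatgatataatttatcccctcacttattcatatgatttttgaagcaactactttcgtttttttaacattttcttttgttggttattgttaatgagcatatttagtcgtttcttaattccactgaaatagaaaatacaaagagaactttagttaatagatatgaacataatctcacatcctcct
4CL2: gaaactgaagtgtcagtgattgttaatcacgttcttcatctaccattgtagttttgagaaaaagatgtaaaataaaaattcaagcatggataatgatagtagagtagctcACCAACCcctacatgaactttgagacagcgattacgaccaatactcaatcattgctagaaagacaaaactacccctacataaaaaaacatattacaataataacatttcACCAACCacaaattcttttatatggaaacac
CCR2: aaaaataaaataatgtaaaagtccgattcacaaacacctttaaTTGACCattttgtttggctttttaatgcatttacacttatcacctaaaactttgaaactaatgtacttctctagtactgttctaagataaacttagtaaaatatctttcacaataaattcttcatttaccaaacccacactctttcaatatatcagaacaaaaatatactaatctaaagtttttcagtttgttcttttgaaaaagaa
PAL3: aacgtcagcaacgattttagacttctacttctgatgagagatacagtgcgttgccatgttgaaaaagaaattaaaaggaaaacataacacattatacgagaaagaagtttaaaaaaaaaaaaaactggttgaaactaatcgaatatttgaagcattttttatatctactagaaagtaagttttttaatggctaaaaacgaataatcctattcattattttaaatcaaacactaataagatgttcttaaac

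A W-box lies in PAL1 at 68 to 63 bases before the start and in CCR2 at 207 to 202 bases, and 4CL2 has the AC element ACCAACC at 140 to 134 and 31 to 25 bases. C4H and PAL3 had no match in this window. Of the 10 members, 3 held an AC element (4CL2, CCR1 and CCoAOMT1), beside 6.01% of 18481 protein-coding genes of the table. A W-box was in 3 (PAL1, PAL2 and CCR2), beside 28.3%, and a G-box in 1 (PAL4), beside 7.56%. CCR1 and CCoAOMT1 held an AC element and did not pass the test at 3 h.

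The genes around these enzymes were taken from lists of the pathway. Of 10 genes that supply phenylalanine, 1 rose at 3 h against control when Pb OS was applied and 2 when Sl OS was. Over all genes 13.3% (Pb OS) and 14.6% (Sl OS) rose, so that these counts lie near the share of all genes. None of the 10 fell (14.6% and 16.3% of all genes). ADT4 rose with both OS, by 1.66 (adjusted p = 0.00115) and 1.61 (adjusted p = 0.00133) on the log2 scale. Of the other lignin monomer enzymes, 12 of 13 listed genes were in the table. Of these, 4 rose with Pb OS (13.3% of all genes) and 5 with Sl OS (14.6%). CAD5, a cinnamyl alcohol dehydrogenase of the last reduction step, rose by 5.49 (adjusted p = 6.89e-11) and 5.94 (adjusted p = 1.64e-11), from a mean of 23.3 CPM in controls to 1175 and 1438 CPM. 4CL5, a further 4CL, rose by 2.98 and 3.01. CCoAOMT6, a relative of CCoAOMT1, rose by 3.04 (adjusted p = 0.0372) and 4.31 (adjusted p = 0.00416) from a mean of 0.252 CPM. The median log2 changes of this list were 0.56 and 0.66.

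Genes of lignin polymerisation moved both ways (8 of 9 in the table). With Pb OS 3 rose and 2 fell at 3 h (13.3% and 14.6% of all genes), and with Sl OS likewise 3 and 2 (14.6% and 16.3%). PRX52, a class III peroxidase, rose by 8.35 (adjusted p = 2.12e-10) and 9.26 (adjusted p = 3.47e-11) from a mean of 0.117 CPM to 30.7 and 55.7 CPM. PRX72 rose by 3.19 and 2.73, but stayed scarce, at a mean of 0.156 CPM in controls, 0.937 CPM with Pb OS and 0.668 CPM with Sl OS. ABCG29, a transporter of p-coumaryl alcohol, rose by 1.39 and 1.15. The laccase LAC4 fell by 1.32 (adjusted p = 0.0194) with Pb OS and by 1.39 (adjusted p = 0.0138) with Sl OS. Of the soluble branches 9 of 12 genes were in the table, and 3 rose with each OS (13.3% and 14.6% of all genes). These were the glucosyltransferases UGT84A1 (3.67 and 3.70), UGT84A3 (2.80 and 3.05) and UGT84A2 (2.40 and 2.74). UGT84A1 was scarce, at a mean of 0.177 CPM in controls, 2.48 CPM with Pb OS and 2.30 CPM with Sl OS. The 4 flavonoid entry genes gave no call with Pb OS (27.9% of all genes in either direction) and 1 with Sl OS (30.9%). This was TT5 (1.34), named here after its value was seen.

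Among regulators and PAL turnover genes (18 of 20 in the table), 7 rose and 2 fell with Pb OS (13.3% and 14.6% of all genes). With Sl OS 8 rose and 2 fell (14.6% and 16.3%). KFB01, a Kelch F-box protein of the group that targets PAL for breakdown, rose by 5.86 (adjusted p = 1.63e-07) and 6.10 (adjusted p = 7.08e-08), from a mean of 3.15 CPM to 151 and 166 CPM. KFB39 rose by 3.28 and 3.67. MYB15, a MYB factor of lignin induced in defence, rose by 6.19 (adjusted p = 8.63e-10) and 5.59 (adjusted p = 3.31e-09). MYB43 fell by 3.51 and by 2.32, and MYB58, a lignin activator, by 1.74 and by 2.46, from control means of 1.23 and 0.430 CPM. At 24 h CAD5, PRX52 and MYB15 passed with W, Pb OS and Sl OS.

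**Figure D5:**
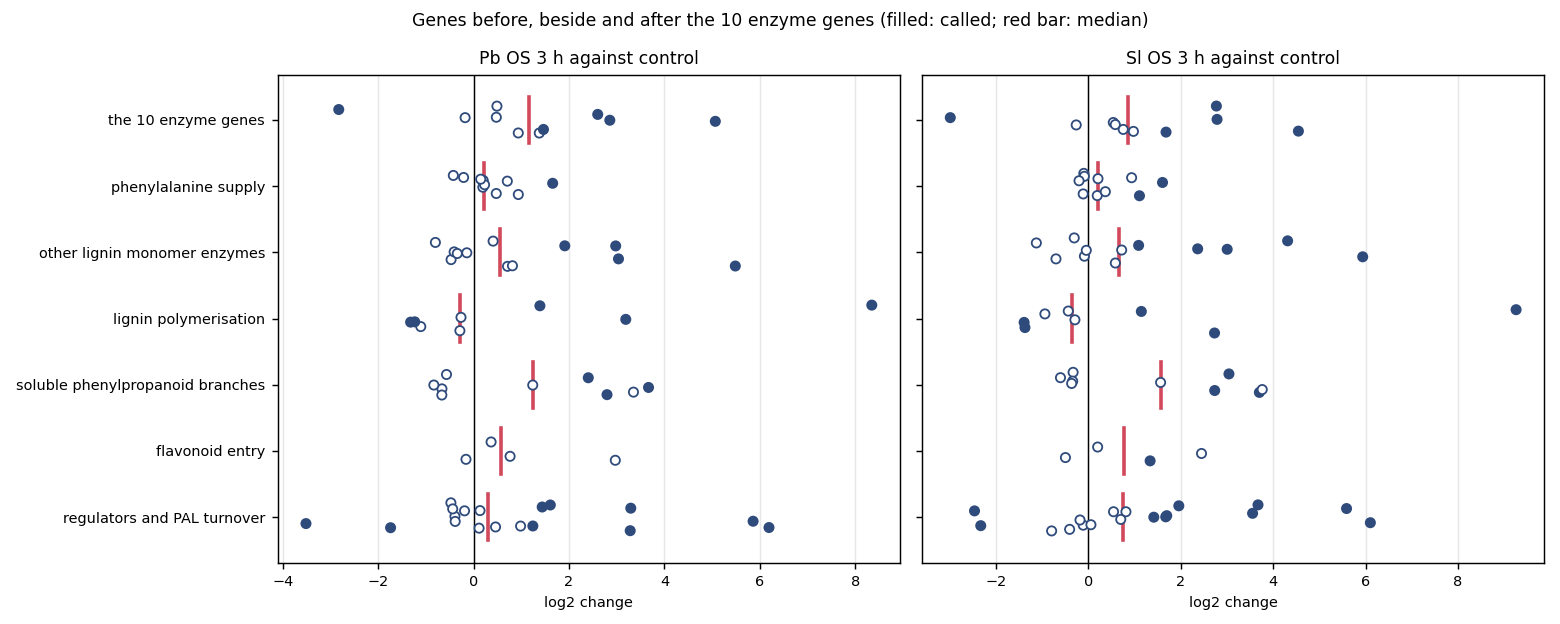
Log2 change at 3 h against control of the 10 enzyme genes and of 6 lists of neighbouring steps, with Pb OS and Sl OS. Each point is a gene, filled where it passed the test, and the red bar is the median of the list. The 10 enzyme genes have medians of 1.16 and 0.87, and PRX52 is the point farthest to the right.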

How the data were processed

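RNA was taken from leaf discs of 27 samples in 7 groups and sequenced in reads of 150 bases. The authors trimmed reads with Cutadapt 2.5, screened out ribosomal reads, aligned to TAIR10 with STAR 2.5.3a and counted per gene with HTSeq 0.9.1. The deposited table holds log2 CPM, which the authors scaled by TMM with a prior count of 1, filtered for low genes and corrected for batch. Its values have equal means in 2 plant batches for every gene (largest difference 3.28571e-09), although the methods name 4 batches. A further deposited file holds the authors' own comparisons (log2 fold changes and p-values) and was not used.

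Whole reads were recovered for 100% of the 18899 genes, within 0.02 reads, and gave 22.5 to 31.3 M reads per library. The main test was limma 3.58.1 in R 4.3.3 on the log2 CPM, with group means, 2 plant batches, a trended prior and all 27 samples (19 residual degrees of freedom). In each of 17 comparisons the Benjamini-Hochberg method was applied across 18899 genes with a threshold of 0.05, with a log2 change over 1 asked against control. Fold changes are on the scale of log2 CPM with the prior count, which understates those of scarce genes. Because the deposited values were already corrected for batch, the fit also carries a batch term. The W samples at 3 h were placed in plant batches 1, 2 and 2 after the numbering in the study's sample plot. Deviations from group means correlated within a replicate number (mean r = 0.74 at 24 h, 0.15 at 3 h) about as within a batch (0.64 and 0.14).

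All 10 enzymes were named in every comparison. From each pathway list, up to 3 genes that rose most and 3 that fell most were named among those past the threshold with both OS at 3 h, and for PAL1, PAL3 and CCR2 the 3 genes of closest correlation. The 10 genes and the lists were chosen with earlier results of these data known. Alternatives were the replicate block, batches at each time, only the groups compared, no trend, log2(CPM + 5), a minimum mean of 1 CPM, voom, library totals and each library left out. Scripts were tested on simulated data. Python 3.11.15, numpy 2.4.6 and pandas 2.3.3 were used.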

Additional observations from a re-analysis of the deposited data

Results flagged for a closer look

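The gap between Sl OS and W in PAL3 differed between the time points by the test of the difference itself, with a log2 value of 2.51 (adjusted p = 0.0369). PAL3 had 1.75 to 5.03 CPM with Sl OS and 14.3 to 20.2 CPM with W at 3 h, and 15.7 to 42.2 CPM with Sl OS and 15.7 to 37.9 CPM with W at 24 h. None of the 60 groups of 4 samples held a value far from the others by Dixon's criterion. Each of these groups holds 2 samples of each plant batch, and where the batches lie apart the criterion cannot flag a sample. The W samples at 3 h (n = 3), a group from which the authors had excluded an outlier, were not examined in this way.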

How the results depend on the processing

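Of 170 values (10 genes in 17 comparisons) 28 passed the threshold, and none of these reversed under the 10 alternatives or with any of the 27 libraries left out. The count of 5 members past the threshold with each OS at 3 h against control held under every alternative within 1.5 times (4 with log2(CPM + 5) for Pb OS). With a replicate block of 4 by label numbers all 28 calls were kept and none added. With the W samples at 3 h as 1, 3 and 4 in that block, 27 were kept and the count for the Sl OS interaction was 0. With no replicate block 28 were kept and the counts were 2 (Sl OS at 24 h against control) and 5 (Pb OS against W at 3 h).

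With batches at each time the counts were 2 (W at 3 h against control), 4 (Pb OS at 24 h), 4 (Sl OS at 24 h), 8 and 8 (Pb OS and Sl OS against W at 3 h), 1 (Sl OS against W at 24 h), 3 and 6 (interactions of Pb OS and Sl OS), and 1, 7 and 9 (24 h against 3 h for W, Pb OS and Sl OS). With only the groups compared they were 3 (W at 3 h), 3 (Pb OS at 24 h), 0 (Sl OS at 24 h), 7 and 8 (Pb OS and Sl OS against W at 3 h), 1 (Sl OS against W at 24 h) and 2 (Sl OS, 24 h against 3 h). With log2(CPM + 5) no member passed for W at 3 h (0) or W, Pb OS and Sl OS at 24 h (0 each), and with voom none for W at 3 h, W at 24 h and Pb OS at 24 h (0 each). Scaling to library totals moved the median of all genes by 0.22 with each OS at 3 h against control and by 0.16 to 0.17 against W. The counts were then 2 and 3 (Pb OS and Sl OS at 24 h against control), 6 and 5 (Pb OS and Sl OS against W at 3 h), 1 and 0 (interactions). The cause was not tested. For some of these fits no count over all genes is given. Among them are OS against W with only the groups compared and with scaling to library totals. So are Pb OS and Sl OS at 24 h against 3 h with batches at each time. In the main fit 46.7% (Pb OS) and 49.9% (Sl OS) of all genes passed for 24 h against 3 h. For OS against W at 3 h it was 26.6% and 33.3%. Where no count is given, the member counts cannot be set beside the share of all genes, and are not a result about the members.

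Leaving out 1 library gave 0 to 1 for W at 3 h (0 without W replicate 2 or 3), 1 to 3 for Sl OS at 24 h (2 without control replicate 3 or Sl OS replicate 4, 3 without Sl OS replicate 3), 2 to 5 for each OS against W at 3 h (5 without Pb OS replicate 2 or Sl OS replicate 1), 0 to 2 for the Pb OS interaction (2 without Pb OS replicate 2 at 3 h) and 0 to 1 for the Sl OS interaction. Over all genes, calls for W at 3 h went from 812 to 314 with log2(CPM + 5). With Pb OS and Sl OS at 3 h they went from 5270 to 2483 and from 5837 to 2898. At 24 h calls for W went from 293 to 881 with batches at each time, 147 with only the groups compared, 63 with log2(CPM + 5) and 132 with voom. For Pb OS they went from 347 to 840, 217, 81 and 158, and for Sl OS from 524 to 1025, 303, 154 and 327. With batches at each time, calls went from 1116 to 3076 and 2858 to 5148 for the interactions, from 952 to 2630 for W over time and from 86 to 156 for Sl OS against W at 24 h. Reads were few for CCR2 in controls (5 to 18), which limits its folds.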
